A study of Mus musculus with 6 samples.

Results

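The 10 MAP kinase phosphatase genes *Dusp1*, *Dusp2*, *Dusp4*, *Dusp5*, *Dusp6*, *Dusp7*, *Dusp8*, *Dusp9*, *Dusp10* and *Dusp16* were chosen by name, and all 10 were found among the 17428 gene symbols of the RNA sequencing table. Of these, 9 passed the filter on low coverage, which needed 500 bases in at least 2 libraries, and *Dusp2* did not. The MAP kinase phosphatases are dual-specificity phosphatases that switch MAP kinases off. They remove the phosphates from both the threonine and the tyrosine of the activation loop of ERK, JNK and p38 kinases. Many are transcribed in response to the pathway that they turn off, so that their mRNA belongs to a negative feedback loop, and they are usually grouped by place and preference into inducible nuclear enzymes, cytoplasmic enzymes that prefer ERK, and enzymes that prefer JNK and p38. TGFβ1 acts on epithelial cells through Smad proteins and also through ERK, JNK and p38.

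The cells were EpH4, a near-normal mouse mammary epithelial line, with 2 biological replicates per stage and 6 in all. E cells were never given TGFβ1. M cells had been kept in medium with TGFβ1 for 7 days, and RE cells had the same 7 days followed by 4 days in medium without it. All 3 stages were grown with serum and insulin, and no sort before the extraction of RNA is described. A value is an average over the culture, and fewer cells with a transcript cannot be told apart from less of it per cell. Values are sequenced bases per gene as a share of the library total, in ppm, normalized by TMM, and the libraries held between 35782513 and 47928557 reads' worth of 50 bases. Among the epithelial markers, *Cdh1* was at 244 to 327 ppm and *Krt8*, *Krt14* and *Krt18* at 122 ppm or more in every library, whereas *Krt5* was at 0.478 ppm or less. *Krt14* was called higher in M than in E (log2 fold change 1.42) and lower in RE than in M (−1.10). *Krt8* was called lower in RE than in M (−1.32), and *Krt18* lower in RE than in E (−1.34). *Cdh1* and *Krt5* were not called in any comparison. The mesenchymal markers *Vim*, *Fn1*, *Cdh2* and *Zeb2* were all called higher in M than in E, and *Vim* went from 6.52 and 3.16 ppm in E to 86.4 and 70.9 ppm in M and 21.6 and 24.3 ppm in RE. The immune marker *Ptprc*, the endothelial marker *Kdr* and the adipocyte markers *Adipoq* and *Cidec* were at 0.0781 ppm or less, and *Itgam* and *Pecam1* at 0.429 ppm or less. The immune marker *Cd68* was at 5.17 to 9.18 ppm, and the endothelial marker *Cdh5*, at 0 in both E libraries, was at 2.33 and 2.07 ppm in the M libraries and 0.0423 and 0.0910 ppm in the RE libraries. Whether any other cell type was present in the cultures was not tested.

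During TGFβ1 exposure, 4 of the 9 phosphatase genes tested changed. *Dusp1*, *Dusp5* and *Dusp6* fell and *Dusp9* rose. A gene was called when it differed by more than 1 on the log2 scale with a limma adjusted p below 0.01, which called 17.0% of the 13893 genes tested in E vs. M, 8.39% of them lower and 8.58% higher in the M cells. After TGFβ1 was withdrawn (M vs. RE), 4 of 9 were called, *Dusp1* and *Dusp6* upwards and *Dusp7* and *Dusp9* downwards, where 12.9% of all genes were called, 8.08% upwards and 4.79% downwards. Against the cells never exposed (E vs. RE), 3 of 9 were called, *Dusp5*, *Dusp7* and *Dusp9*, and all were lower in the RE cells, where 9.37% of all genes were called, 3.17% lower and 6.20% higher. Of all calls, 50.6% were upwards in E vs. M and 62.8% in M vs. RE, and 30.5% and 73.8% with scaling by library totals, under which no phosphatase gene changed direction. The median log2 fold change of the 9 genes was −0.66 (E vs. M), −0.31 (M vs. RE) and −0.56 (E vs. RE), beside 0.0013, −0.017 and 0.0079 over all genes tested. In 8 of 9 genes the E and M libraries did not overlap, and neither did the M and RE nor the E and RE libraries in 9 of 9, but with 2 libraries per stage this was also so for 70.6%, 78.1% and 66.7% of all genes, respectively.

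**Figure D1:**
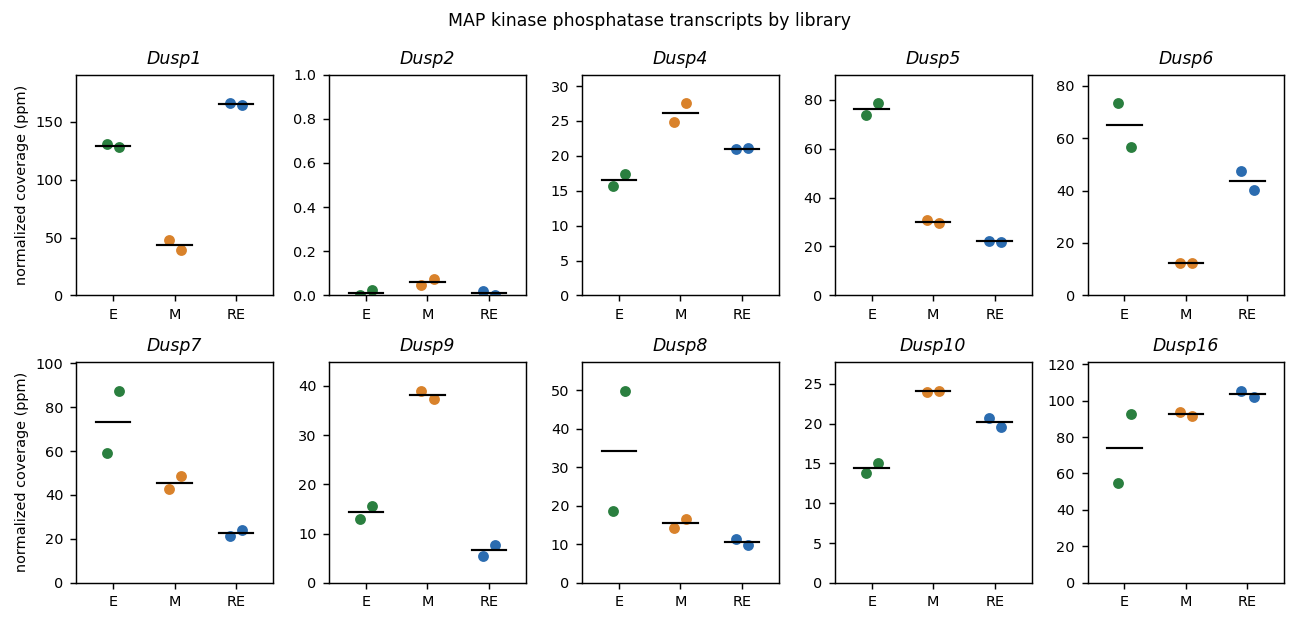
Normalized coverage in ppm (y axis, from 0, with a scale of its own for each gene) of the 10 phosphatase genes in the E, M and RE libraries (x axis). Points are single libraries and bars the mean of the 2 libraries. *Dusp1* and *Dusp6* are low in M and high in E and RE. *Dusp5*, *Dusp7*, *Dusp8* and *Dusp9* are lowest in RE, *Dusp9* is highest in M, and *Dusp2* stays below 0.1 ppm.

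Among the inducible nuclear phosphatases, *Dusp1* encodes an immediate-early enzyme that acts on p38, JNK and ERK. Its coverage was 131 and 128 ppm in the E libraries, 47.5 and 39.3 ppm in the M libraries and 166 and 165 ppm in the RE libraries. The M libraries lay far below the others, and both RE libraries lay above both E libraries. The mean of the M cells (43.4 ± 5.76, SD, n = 2) was 2.98 times lower than that of the E cells (129 ± 1.83), a log2 difference of −1.58 (standard error of the fit, SE, 0.14, limma adjusted p = 0.00015). From M to RE it rose by 1.93 on the log2 scale (SE 0.14, limma adjusted p = 6.59e-05), to 165 ± 0.902. The difference between E and RE, 0.35 (95% interval 0.034 to 0.67), was not called (limma adjusted p = 0.0885). Its calls in E vs. M and M vs. RE stood without any 1 library and under the 11 other settings tried. In a fit without 1 library, the lone library left in that stage is assumed to vary like the libraries of the other stages.

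*Dusp6* encodes the cytoplasmic phosphatase that binds ERK with high selectivity, and its mRNA is commonly read as a measure of ERK output. Like *Dusp1* it was lowest in the M cells, with 73.2 and 56.5 ppm in the E libraries, 12.5 and 12.4 ppm in the M libraries and 47.3 and 40.1 ppm in the RE libraries. The 3 stages did not overlap, and the RE libraries lay between the others. It showed the largest fall of the 9 genes in E vs. M, a log2 fold change of −2.36 (SE 0.17, limma adjusted p = 6.6e-05), which is a mean 5.22 times lower in M. From M to RE it rose by 1.80 (SE 0.17, limma adjusted p = 0.000253). It was at 43.7 ± 5.08 ppm in the RE cells and 64.9 ± 11.8 ppm in the E cells, a log2 difference of −0.56 (95% interval −0.96 to −0.16) that was not called (limma adjusted p = 0.0425). Both calls stood without any 1 library and under the 11 other settings.

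The windows of 250 bases before the RefSeq start sites of *Dusp1* (chr17:26508473-26508722, minus strand) and *Dusp6* (chr10:99262981-99263230, plus strand), from the GRCm38.p6 build, are shown because these genes fell and rose together. Capitals mark matches to the motifs searched. These were, on both strands, the cAMP response element (CRE, TGACGTCA), the AP-1 site (TGANTCA), the Smad palindrome (GTCTAGAC), the E-box bound by Snail and Zeb factors (CAGGTG) and an ETS site (CCGGAAG).
Dusp1: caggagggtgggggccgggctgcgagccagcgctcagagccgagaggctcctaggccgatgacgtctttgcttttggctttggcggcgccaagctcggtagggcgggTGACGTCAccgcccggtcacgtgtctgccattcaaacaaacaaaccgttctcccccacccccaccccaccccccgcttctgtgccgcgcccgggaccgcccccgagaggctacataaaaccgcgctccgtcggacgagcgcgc
Dusp6: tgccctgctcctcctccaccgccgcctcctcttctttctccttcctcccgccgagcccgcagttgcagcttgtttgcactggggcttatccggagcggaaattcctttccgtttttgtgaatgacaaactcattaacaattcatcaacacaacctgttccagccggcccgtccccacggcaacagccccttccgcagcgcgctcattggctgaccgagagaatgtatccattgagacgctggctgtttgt
The *Dusp1* window holds 1 CRE, at −143 from the start site, and the *Dusp6* window holds none of the 5 motifs. A CRE was found in 1.55% of the 32851 promoter windows of the table. Of the 8 phosphatase genes with a window, *Dusp8* also holds CREs, at −107 and −63, each overlapping an E-box, and *Dusp7* holds an E-box at −200. An E-box was found in 17.2% of all windows. None of the 8 held an AP-1 site, a Smad palindrome or the ETS site, which were found in 6.75%, 0.167% and 6.91% of all windows, respectively. A match is a string of letters and no measure of binding, and these data hold no binding measurement.

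*Dusp5* encodes a nuclear phosphatase that is specific for ERK and can hold it in the nucleus. It was at 73.8 and 78.5 ppm in the E libraries, 30.7 and 29.6 ppm in the M libraries and 22.3 and 22.0 ppm in the RE libraries. Unlike *Dusp1* and *Dusp6*, it had no higher value in RE than in M. Its log2 fold change was −1.33 in E vs. M (SE 0.13, limma adjusted p = 0.000228). In E vs. RE it was −1.77 (SE 0.13, limma adjusted p = 0.000333), and the mean was 3.43 times lower in the RE cells. The further difference from M to RE, −0.44 (95% interval −0.74 to −0.14), was not called (limma adjusted p = 0.0348). Without the first RE library the E vs. RE difference was −1.78 and was just outside the threshold (limma adjusted p = 0.0117).

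*Dusp7* encodes a cytoplasmic phosphatase that prefers ERK, close in sequence to the product of *Dusp6*. It was at 59.1 and 87.5 ppm in the E libraries, 42.7 and 48.5 ppm in the M libraries and 21.4 and 24.1 ppm in the RE libraries. The stages did not overlap, and the values stepped down from E to M and from M to RE. The first step was not called (−0.66, limma adjusted p = 0.0342). The second was called at the very edge of the fold threshold (−1.001, SE 0.20, limma adjusted p = 0.00847). It was not called with median-of-ratios factors (−0.98), library totals (−0.80), no filter (limma adjusted p = 0.0144), a pseudocount of 1 ppm (−0.97) or a fit of M and RE alone (−0.97), nor without the second E library (−0.97), the first (−1.09) or second M library (−0.91), or the first (−0.92) or second RE library (−1.09). Over both steps the log2 fold change was −1.66 (SE 0.20, limma adjusted p = 0.00155), a mean 3.22 times lower in RE than in E. This call was lost without the first (−1.57, limma adjusted p = 0.0294) or the second RE library (−1.74, adjusted p = 0.0183).

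The windows of *Dusp5* (chr19:53528895-53529144, plus strand) and *Dusp7* (chr9:106368382-106368631, plus strand) of the same RefSeq build are shown, with the E-box in capitals. Both genes were lowest in the RE cells and called lower there than in E. *Dusp8* and *Dusp9* were also lowest in RE, but *Dusp8* was not called and *Dusp9* has no window.
Dusp5: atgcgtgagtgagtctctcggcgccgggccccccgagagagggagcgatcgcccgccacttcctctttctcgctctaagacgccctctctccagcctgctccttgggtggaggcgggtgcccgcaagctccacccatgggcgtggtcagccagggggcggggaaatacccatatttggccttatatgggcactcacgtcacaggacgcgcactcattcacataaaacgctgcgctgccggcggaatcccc
Dusp7: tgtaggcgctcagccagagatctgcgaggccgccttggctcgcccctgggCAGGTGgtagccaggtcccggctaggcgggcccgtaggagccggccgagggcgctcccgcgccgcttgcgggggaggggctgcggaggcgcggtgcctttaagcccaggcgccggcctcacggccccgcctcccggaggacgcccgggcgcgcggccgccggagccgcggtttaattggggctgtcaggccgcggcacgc
The *Dusp5* window had a GC content of 64%, and the *Dusp7* window had 77.2%, the highest of the 8 windows. That of *Dusp6* had 56.4%, the lowest.

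*Dusp9*, the third cytoplasmic enzyme that prefers ERK, was the phosphatase gene called higher in M than in E. It was at 12.9 and 15.6 ppm in the E libraries, 39.1 and 37.4 ppm in the M libraries and 5.51 and 7.76 ppm in the RE libraries. The M libraries were the highest and the RE libraries the lowest, below both E libraries. In E vs. M the log2 fold change was 1.42 (SE 0.20, limma adjusted p = 0.00144), a mean 2.67 times higher in M. In M vs. RE it was −2.53 (SE 0.20, limma adjusted p = 0.000112), the largest difference of the 9 genes in any of the 3 comparisons, with a mean 5.76 times lower in RE. This call stood without any 1 library. Against the E cells the RE cells were lower by a log2 fold change of −1.11 (SE 0.20, limma adjusted p = 0.00693), from 14.3 ± 1.91 to 6.63 ± 1.59 ppm. The rise in the M cells was not called without the first (1.39, limma adjusted p = 0.0209) or the second M library (1.45, adjusted p = 0.0179). The E vs. RE call was lost with no filter (limma adjusted p = 0.0129), with array weights (0.0146), in a fit of E and RE alone (0.0248), and without the second E library (−0.97), the first (limma adjusted p = 0.0238) or second M library (0.0236), or the first (−0.87) or second RE library (limma adjusted p = 0.0208).

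*Dusp4*, a nuclear phosphatase that acts on ERK and JNK, had its highest values in the M cells. It was at 15.7 and 17.5 ppm in the E libraries, 24.8 and 27.5 ppm in the M libraries and 20.9 and 21.1 ppm in the RE libraries. The M libraries were the highest, and no stages overlapped. The log2 fold change in E vs. M was 0.66 (95% interval 0.32 to 0.99), with a limma adjusted p of 0.00971, and it was not called because it is under the fold threshold. The differences in M vs. RE (−0.31, limma adjusted p = 0.142) and in E vs. RE (0.34, adjusted p = 0.113) were not called. *Dusp2*, whose product is known mainly from lymphoid and myeloid cells, had 0 and 50 bases in the E libraries, 100 and 150 in the M libraries and 50 and 0 in the RE libraries. These are at most 3 reads' worth in any library, and no difference can be read at this depth.

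**Figure D2:**
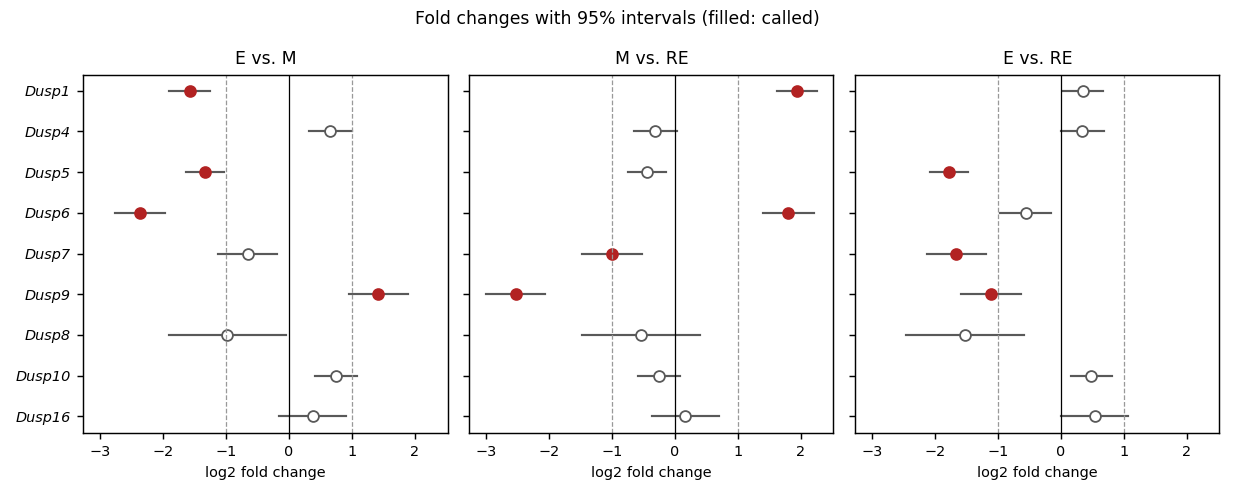
Log2 fold changes of the 9 genes tested (rows) in the 3 comparisons (panels). Points are the limma estimates from 2 libraries per stage, filled where called, lines are 95% intervals, and dashed lines mark the fold threshold of 1 either way. *Dusp1* and *Dusp6* lie left of the threshold in E vs. M and right of it in M vs. RE, and *Dusp9* does the opposite.

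None of the 3 genes whose products prefer JNK and p38 was called by limma in any comparison. At an unadjusted limma p below 0.05, *Dusp8* and *Dusp10* passed in E vs. M, all 3 in E vs. RE and 0 in M vs. RE. The share of all genes below that cutoff was not counted, so passing it is not read as a change. *Dusp10* was at 13.8 and 15.0 ppm in the E libraries, 24.0 and 24.2 ppm in the M libraries and 20.7 and 19.6 ppm in the RE libraries. Both later stages lay above E, and in E vs. M the difference was 0.74 (95% interval 0.41 to 1.07), with a limma adjusted p of 0.00534 but under the fold threshold. With a fold threshold of 1.5, *Dusp10* and *Dusp4* would both be called in E vs. M. The calls over all genes would then be 3308 in place of 2358.

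*Dusp16* and *Dusp8* were the genes whose E libraries differed most. *Dusp16* was at 54.9 and 92.9 ppm in the E libraries, 93.9 and 91.4 ppm in the M libraries and 105 and 102 ppm in the RE libraries. The second E library lay between the M libraries and the first far below them. The E vs. M difference of 0.37 (limma adjusted p = 0.222) was −0.0041 without the first E library. *Dusp8* was at 18.6 and 49.9 ppm in the E libraries, a 2.68-fold difference between replicates, at 14.2 and 16.7 ppm in the M libraries and at 11.4 and 9.79 ppm in the RE libraries. Every M and RE library lay below both E libraries. Its log2 fold change was −0.98 in E vs. M (95% interval −1.91 to −0.050, limma adjusted p = 0.0847) and −1.52 in E vs. RE (95% interval −2.45 to −0.59, limma adjusted p = 0.0263). Without the first E library it was called in both, at −1.69 (limma adjusted p = 5.89e-07) and −2.23 (adjusted p = 7.97e-08), but that fit takes its spread from the M and RE libraries and leaves out the difference between the E libraries. With array weights it was called in E vs. RE (limma adjusted p = 0.00476). The SD over all genes of the log2 ratio of replicates was 0.558 in E, against 0.318 in M and 0.309 in RE.

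Levels were compared between genes after division by the length of the longest protein-coding transcript in a newer annotation (GENCODE M21), in ppm per kb. The sum of the 10 genes was 180 ± 13.8 ppm per kb in E, 106 ± 1.59 in M and 155 ± 2.18 in RE cells (SD, n = 2). The 2 M libraries, at 107 and 105, were the lowest. *Dusp1* had the highest level per kb in every stage, and its share of the sum was 36.3% ± 3.29 in E, 20.5% ± 2.41 in M and 53.7% ± 0.466 in RE. In the E cells *Dusp5*, at 30.8 ppm per kb, came next, followed by *Dusp6* (23.2) and *Dusp7* (22.8), which overlapped between libraries, and by *Dusp16* (14.5). The levels of *Dusp8*, *Dusp4*, *Dusp9* and *Dusp10*, between 5.16 and 7.13 ppm per kb, each overlapped with the next. In the M cells *Dusp1* (21.8) and *Dusp16* (18.1) led and did not overlap, *Dusp7* (14.2) and *Dusp9* (14.0) overlapped, and *Dusp6* (4.44) had dropped to the eighth place. In the RE cells *Dusp1* stood at 83.1 ppm per kb, *Dusp16* at 20.3 and *Dusp6* at 15.6, and *Dusp9* (2.44) and *Dusp8* (2.20), which overlapped, were the lowest above *Dusp2*.

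By role, the 4 nuclear genes summed to 102 ± 0.886 ppm per kb in E, 43.6 ± 2.48 in M and 99.7 ± 0.511 in RE cells. The sum of the RE cells was thus near that of the E cells, but in E it was made up of *Dusp1* at 65.0 and *Dusp5* at 30.8, and in RE of *Dusp1* at 83.1 and *Dusp5* at 8.97 ppm per kb. The 3 cytoplasmic genes that prefer ERK summed to 51.3 ± 2.73 in E, 32.7 ± 0.840 in M and 25.1 ± 0.636 ppm per kb in RE. The 3 genes that prefer JNK and p38 were at 26.8 ± 10.2, 30.0 ± 0.0495 and 29.7 ± 1.04 ppm per kb, and the first E library (19.6) was the lowest of the 6. The share of the cytoplasmic ERK-preferring genes in the sum was 28.5% ± 0.670 in E, 30.8% ± 1.25 in M and 16.3% ± 0.182 in RE. These sums over chosen genes were not tested.

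**Figure D3:**
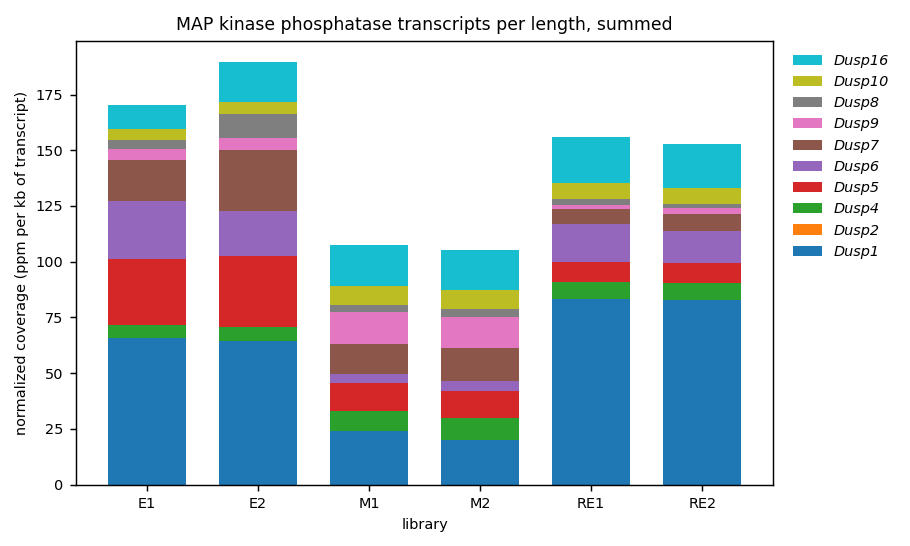
Normalized coverage per length (y axis, ppm per kb of transcript) of the 10 phosphatase genes, stacked for each library (x axis). The M libraries have the lowest totals (107 and 105), and *Dusp1*, at the base of each bar, makes up 53.4% and 54.1% of the RE totals against 38.6% and 33.9% in E.

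Beside the family, 7 lists held 68 other genes, 62 of which were tested. The lists cover MAP kinases, the kinases above and below them, ERK-induced and stress-kinase-linked genes, and other phosphatases. Of these 62, 13 were called in E vs. M (2 rose, 11 fell), 9 in M vs. RE (5 rose, 4 fell) and 8 in E vs. RE (1 rose, 7 fell). These are 21.0%, 14.5% and 12.9% of the genes on the lists, beside 17.0%, 12.9% and 9.37% of all genes. Without any 1 library, 3 of the 13 calls in E vs. M (*Mapk13*, *Fos* and *Myc*), 2 of the 9 in M vs. RE (*Fos* and *Etv4*) and 0 of the 8 in E vs. RE stood.

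Among the MAP kinases themselves, of 9 genes tested 2 (E vs. M), 1 (M vs. RE) and 2 (E vs. RE) were called. Of all genes, 17.0%, 12.9% and 9.37% were called. *Mapk3*, which encodes an ERK and had the highest level per kb of the list, was at 111 to 141 ppm in all 6 libraries and was not called in any comparison (log2 difference −0.0051, limma adjusted p = 0.981 from E to M). The median log2 fold change of the list was 0.37 (E vs. M), −0.11 (M vs. RE) and 0.085 (E vs. RE). *Mapk13*, which encodes the delta form of p38, was at 135 and 105 ppm in the E libraries, 28.5 and 26.9 ppm in the M libraries and 38.9 and 35.3 ppm in the RE libraries. It was lower in M (log2 fold change −2.10, limma adjusted p = 7.9e-05) and stayed lower in RE (−1.68, adjusted p = 0.000659), although the second call was lost without the first (limma adjusted p = 0.0153) or second RE library (0.0136). *Mapk12*, the gamma form, was also lower in both (−1.03, limma adjusted p = 0.00151, and −1.23, adjusted p = 0.0015). The *Mapk12* calls were lost with a pseudocount of 1 ppm (−0.98), without the first E library (−0.95) or the first (limma adjusted p = 0.0204) or second M library (0.0248) in E vs. M, and without the first (0.0308) or second RE library (0.0231) in E vs. RE. *Mapk11*, the beta form, was lower in RE than in M (−1.29, limma adjusted p = 0.00146). That call was lost without any 1 of the M or RE libraries (−1.43 to −1.16). From E to M the *Mapk11* difference was positive and not called (0.71, limma adjusted p = 0.0151). *Mapk14*, the alpha form, was not called in any comparison. It was at 59.5 and 80.9 ppm in the E libraries, 93.3 and 86.1 ppm in the M libraries and 89.4 and 88.6 ppm in the RE libraries.

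None of the 10 Raf and MAP2 kinase genes was called by limma in any comparison. An unadjusted limma p below 0.05 was found for 5 (E vs. M), 3 (M vs. RE) and 5 (E vs. RE) of them. The share of all genes below that cutoff was not counted, so these counts are not read as a shift of the list. Of 10 genes for kinases that MAP kinases activate, 0 were called in E vs. M and E vs. RE. At an unadjusted limma p below 0.05 there were 7 and 4, again without the share of all genes. One was called in M vs. RE, namely *Rps6ka5*, the nuclear kinase MSK, which rose from 17.3 and 16.2 to 41.0 and 36.4 ppm (1.203, limma adjusted p = 0.000787), except without any 1 of the M or RE libraries (adjusted p from 0.0102 to 0.0194). *Mapkapk2*, a kinase activated by p38 and the highest of that list per kb, was at 156 and 156 ppm in E, 238 and 214 ppm in M and 161 and 162 ppm in RE and was not called (0.53, limma adjusted p = 0.0121 from E to M). The 3 other tyrosine phosphatases of MAP kinases, *Ptprr*, *Ptpn5* and *Ptpn7*, were at 0.359 ppm or less in every library, and only *Ptpn5* passed the filter. It was not called by limma and had no unadjusted p below 0.05.

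Of 15 genes known to be induced by ERK, 14 were tested, and E vs. M gave 5 calls, of which 4 were lower in M. M vs. RE and E vs. RE gave 4 calls each. *Fos*, an immediate-early AP-1 subunit, was at 223 and 156 ppm in the E libraries, 14.4 and 12.3 ppm in the M libraries and 60.3 and 51.7 ppm in the RE libraries. It fell by 3.797 on the log2 scale in E vs. M (limma adjusted p = 1.84e-05) and rose by 2.06 in M vs. RE (adjusted p = 0.000268), so that its values had the same order over the stages as those of *Dusp6*. It remained lower in RE than in E (−1.74, limma adjusted p = 0.00124), except without the first (0.0196) or second RE library (0.0202). *Egr1*, another immediate-early factor, was at 10.2 and 10.7, 3.89 and 2.13, and 8.60 and 9.07 ppm in the E, M and RE libraries, respectively (−1.82, limma adjusted p = 0.00179 for E to M, and 1.58, adjusted p = 0.00433 in M vs. RE). The *Egr1* calls were lost without the second M library (0.0102) in E vs. M, and without the second M (0.0232), first RE (0.0403) or second RE library (0.0411) in M vs. RE.

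*Myc* was lower in M (−1.83, limma adjusted p = 0.000383) and in RE (−1.26, adjusted p = 0.0039) than in E. The second *Myc* call was lost in a fit of E and RE alone (limma adjusted p = 0.0117), without the second E library (−0.98) and without any 1 of the M or RE libraries (adjusted p from 0.0124 to 0.0519). Of the 3 feedback inhibitors of ERK signalling tested, *Spry2* was lower in M (−1.09, limma adjusted p = 0.00192), except with a pseudocount of 1 ppm (−0.997) or without the first (0.0149) or second M library (0.0287). The other members of that group, *Spred1* (0.49, limma adjusted p = 0.0173) and *Spred2* (1.05, adjusted p = 0.0296), had positive differences in E vs. M that were not called. *Etv4*, an ETS factor, was highest in M and lowest in RE, the order of *Dusp9*. It was at 60.0 and 54.7 ppm in E, 93.1 and 76.6 ppm in M and 26.1 and 31.9 ppm in RE, and it was called in M vs. RE (−1.55, limma adjusted p = 0.000437).

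The receptor gene *Epha2*, with the highest level per kb of the ERK-induced list (94.5 ppm per kb over all libraries), was lower in RE than in M (−1.35, limma adjusted p = 0.00956). This is at the edge of the threshold, and the call was lost under 6 other settings (adjusted p from 0.0102 to 0.0189 by limma) and without any 1 of the M or RE libraries (0.0522 to 0.0883). The cyclin gene *Ccnd1* was lower in RE than in E (−1.38, limma adjusted p = 0.00196), except without the first (0.0379) or second RE library (0.0221). *Epha4*, at 3.56 ppm or less on average in each stage, was the gene of that list called higher in M (1.22, limma adjusted p = 0.00881) and in RE (1.80, adjusted p = 0.00317) than in E. Its call in E vs. M was lost under 6 other settings (0.011 to 0.0355) and without any 1 of the M or RE libraries (0.0163 to 0.0634). In E vs. RE its call was lost in a fit of those groups alone (0.0118) and without any 1 of the M or RE libraries (0.0118 to 0.0485). The median log2 fold change of the ERK-induced list was −0.34 (E vs. M), −0.044 (M vs. RE) and −0.56 (E vs. RE).

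Of the 8 genes linked to stress kinases, *Jun* and *Ddit3* had a low in the M cells and a return in the RE cells, as *Dusp1* did. *Jun*, an AP-1 subunit whose protein is the namesake substrate of JNK, was at 154 and 96.7 ppm in the E libraries, 49.5 and 46.7 ppm in the M libraries and 142 and 148 ppm in the RE libraries. It was called in E vs. M (−1.34, limma adjusted p = 0.00221) and M vs. RE (1.59, adjusted p = 0.0013). The *Jun* calls were lost without the first (0.0224) or second M library (0.0262) in E vs. M, and without any 1 of the M or RE libraries (0.0162 to 0.0184) in M vs. RE. *Ddit3*, a factor of the stress response, was at 39.8 and 67.3, 20.4 and 22.3, and 66.0 and 58.1 ppm in the E, M and RE libraries, with calls in E vs. M (−1.28, limma adjusted p = 0.00466) and M vs. RE (1.53, adjusted p = 0.0026). The *Ddit3* calls were lost in a fit of E and M alone (0.0144), without the second E library (−0.92) and without any 1 of the M or RE libraries (0.0143 to 0.0451) in E vs. M, and without any 1 of the M or RE libraries (0.0211 to 0.0356) in M vs. RE. *Atf3* was lower in RE than in E (−1.55, limma adjusted p = 0.00679), except with no filter (0.0139), in a fit of E and RE alone (0.0194) or without any 1 of the M or RE libraries (0.0203 to 0.0699). The median log2 fold change of the list was −0.63, 0.074 and 0.057 in the same 3 comparisons.

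The atypical dual-specificity phosphatases, which lack the kinase-binding domain of the family described here, had 10 of 12 genes tested. In E vs. M 4 were called, 3 of them lower, where 17.0% of all genes were called, 8.39% lower. The median log2 fold change was −0.094 (E vs. M), −0.21 (M vs. RE) and −0.30 (E vs. RE). *Dusp14*, with the highest level per kb of these genes, was at 41.0 and 42.8 ppm in E, 72.8 and 74.6 ppm in M and 37.2 and 38.4 ppm in RE, differences just under the fold threshold (0.81, limma adjusted p = 0.0019 for E to M, and −0.96, adjusted p = 0.00112 in M vs. RE). *Dusp22* was lower in M (−1.91, limma adjusted p = 0.00149) and in RE (−2.04, adjusted p = 0.00225) than in E. The *Dusp22* calls were lost without the second M library (0.0186) in E vs. M and without the first (0.0287) or second RE library (0.0273) in E vs. RE.

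The other calls among the atypical genes were on coverage of at most 2.50 ppm. *Dusp28* was higher in M than in E (1.501, limma adjusted p = 0.00312) and in RE fell again (−1.27, adjusted p = 0.00829). It was not called in E vs. M with a pseudocount of 1 ppm (0.92), with array weights (0.0157), or without the first (0.0405) or second M library (0.0261), nor in M vs. RE with 5 of the other settings or without any 1 of the M or RE libraries (0.0364 to 0.0902). *Styxl1*, whose product lacks phosphatase activity, was lower in M (−1.65, limma adjusted p = 0.00822), but not with other pseudocounts (adjusted p = 0.0112 with 0.025 ppm, −0.61 with 1 ppm), with array weights (0.0447), in a fit of E and M alone (0.0206), or without any 1 of the M or RE libraries (0.021 to 0.071). *Dusp23* was at 3 reads' worth or fewer in both M libraries and at least 4.46-fold lower there than in E, where the bound sets the floor per library (limma adjusted p = 0.00704). It passed the filter only through the E libraries, so a lower value elsewhere was a condition of its being tested, and its call is no support for a change on the list. Without either E library it did not pass the filter and has no value. It was not called with a pseudocount of 1 ppm (0.0237), with array weights (0.0464), in a fit of E and M alone (0.0188), or without any 1 of the M or RE libraries (0.019 to 0.059).

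**Figure D4:**
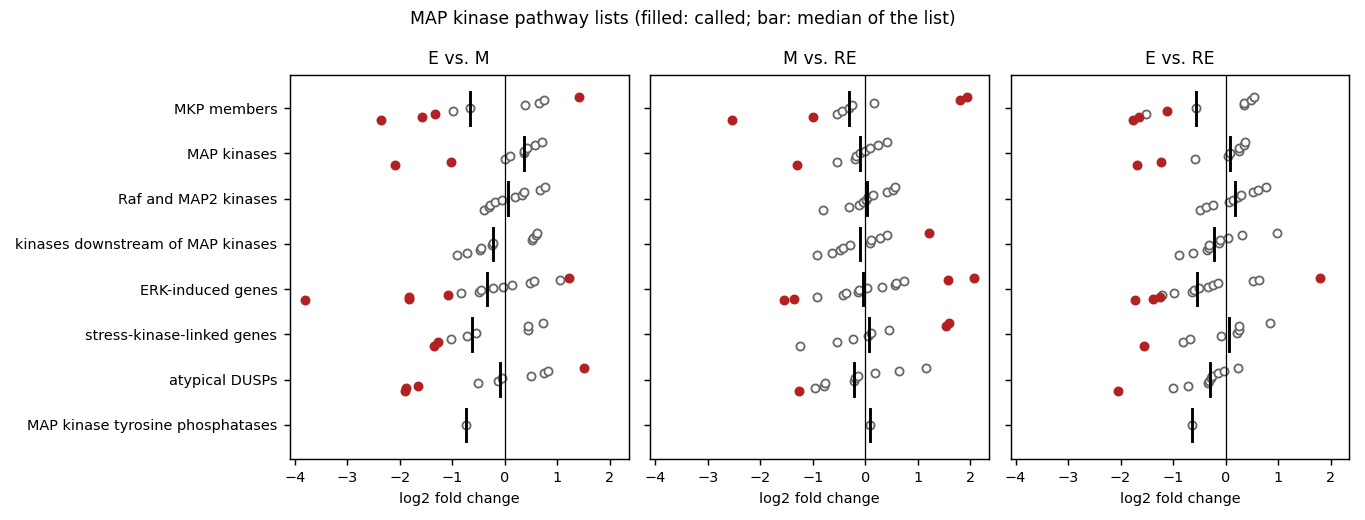
Log2 fold changes (x axis) of the genes tested on each list (rows) in the 3 comparisons (panels). Points are genes, filled where called, and vertical bars are the median of the list. The phosphatase genes (top row) spread from −2.36 to 1.42 in E vs. M, and no Raf or MAP2 kinase gene is filled in any panel.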

How the data were processed

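RNA of EpH4 cells (2 libraries each of E, M and RE) was sequenced. The authors mapped unique reads to the NCBI m37 mouse genome with Bowtie and TopHat2. How reads were assigned to genes, with which annotation and tool versions, is not given in the sources used here. The deposited values are signal (coverage), unscaled bases summed over each gene: whole numbers totalling 1789125650 to 2396427835 per library, of which 44.8% to 48.4% of those from 1 to 400 are multiples of 50. The edgeR test of the paper needs read counts and was not run.

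Here coverage was scaled by unweighted TMM (30% and 5% trims), and the 13893 genes with 500 bases in at least 2 libraries were fitted with limma 3.58.1 (R 4.3.3), all 6 libraries together, as log2(ppm + 0.1) with group as the sole term and a mean-expression trend. Fold changes on this scale understate those of low genes. P-values were adjusted over all genes tested by the Benjamini-Hochberg method. The second named stage is compared with the first. Coverage of 150 bases (3 reads' worth) or less counts as the floor, for counting error only. The fit was tested on simulated data. Overlapping genes may share coverage, and strand was not stated.

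The phosphatases and the lists were chosen with earlier results of these data known. Every phosphatase is described, and of each list the genes called in any comparison and the one of highest level per kb, except for an item that is not reported here. Lengths came from GENCODE M21 (GRCm38, newer than the build of the authors), in which all 78 genes matched by symbol. Promoter windows came from RefSeq (GRCm38.p6), with 8 of the 10 phosphatases matched by symbol, all but *Dusp4* and *Dusp9*. Alternatives were another fold or p threshold, 2 other scalings, 2 other filters, 2 other pseudocounts, only the groups compared, a replicate block, array weights, and leaving out each library.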

Additional observations from a re-analysis of the deposited data

How the results depend on the processing

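No direction among the 9 phosphatase genes changed under the 11 settings other than leaving out a library. When single libraries were left out, the E vs. M difference of *Dusp16* turned from 0.37 to −0.0041 without the first E library and was 0.73 without the second, and the number of phosphatase genes called ran from 3 to 5 (E vs. M), 3 to 4 (M vs. RE) and 0 to 4 (E vs. RE). Without the first RE library 0 of the 9 and 44 of all genes were called in E vs. RE, and without the second 1 and 160. In these fits the lone RE library is assumed to vary like the E and M libraries, and E had the widest spread, so the lost calls are not read as smaller effects. The log2 fold changes there were −1.78 and −1.76 for *Dusp5*, −1.57 and −1.74 for *Dusp7* and −0.87 and −1.35 for *Dusp9*. The counts on the other 7 lists ran from 3 to 15, from 2 to 10 and from 0 to 13. They were 7 with a pseudocount of 1 ppm (E vs. M), 14 (M vs. RE) and 13 (E vs. RE) with a fold threshold of 1.5, and 5 in a fit of E and RE alone. Over all genes, the calls ran from 945 to 3362, from 683 to 2337 and from 44 to 2348 without 1 library, beside 2358, 1789 and 1302, and were 697 in the fit of E and RE alone. With library totals the median gene moved to −0.29 (E vs. M), 0.18 (M vs. RE) and −0.082 (E vs. RE), and no phosphatase gene changed direction.

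The replicate numbers are shared by the stages, but the correlation over genes of the deviations from the stage means was 0.267 between E and M, 0.116 between M and RE and 0.058 between E and RE, so the number was not taken to pair them. With the replicate number as a block, 4, 4 and 3 phosphatase genes and 12, 9 and 8 list genes were called in the 3 comparisons. No phosphatase call changed, and on the lists the calls on *Epha4* in E vs. M (1.22) and *Dusp28* in M vs. RE (−1.27) were lost, and *Gadd45a* was called in M vs. RE. The 9 phosphatase genes tested had at least 260.2 reads' worth of coverage in every library, and *Dusp2* had too little to compare.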
